A study of Mus musculus with 12 samples.

Results

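The vitamin D and klotho genes are 6 genes that make, break down or sense the vitamin D hormone in the kidney, or carry the phosphate hormone signal that controls it. They were taken by name from the whole-genome array table: all 10 probes annotated Cyp24a1, Cyp27b1, Vdr, Kl, Fgfr1 or Rxra, of 45281 probes for 30854 gene symbols. The kidneys came from 12 male C57BL/6 mice, 10 weeks old. The 6 colistin mice received 16 mg/kg/day, split over 2 doses a day, and the 6 saline mice received 0.1% saline 2 times a day, both for 72 hours. Colistin is a polymyxin antibiotic used against Gram-negative bacteria, and injury of the renal tubule limits its dose. The question is which transcripts of the kidney change with this exposure. Each mouse was read on 1 Illumina MouseWG-6 v2 array, and each of the 2 BeadChips held 3 mice of each group. Colistin and saline arrays alternated along each BeadChip, so the effects of treatment and of position on the chip cannot be told apart.

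The kidney turns the circulating precursor of vitamin D into the active hormone, calcitriol, in the proximal tubule, where megalin and cubilin take the precursor up. Cyp27b1 makes calcitriol, Cyp24a1 breaks it down, and the vitamin D receptor, Vdr, paired with the retinoid X receptor Rxra, switches Cyp24a1 on in a feedback loop. FGF23, a hormone from bone, acts on the tubule through klotho (Kl) and FGF receptors such as Fgfr1, where it lowers phosphate reabsorption and calcitriol production. Klotho is made mainly in the distal convoluted tubule and also in the proximal tubule.

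The arrays detected 14679 to 15870 probes each in colistin mice and 14661 to 16154 in saline mice. A probe counted as detected, or above background, at a detection p under 0.01 against the negative control beads of its array. The arrays of saline mice 2 and 5 differed most from the rest. On the first principal component of the tested probes (49.2% of the variance) the colistin mice lay between -14.7 and 0.69, whereas saline mouse 2 was at 64.6, saline mouse 5 at 28.7 and saline mouse 1 at the other end, -27.1. The raw signal's 95th percentile ran from 777 to 949 in colistin mice, against 752 to 864 in saline mice other than mouse 5, whose value was 475. As a check of the tissue, all 9 proximal tubule markers and all 4 thick ascending limb markers passed the detection filter. So did 5 of 6 distal tubule, 5 of 6 collecting duct, 4 of 5 podocyte, 7 of 8 endothelial, 7 of 8 macrophage and 6 of 7 fibroblast markers. The markers that were not kept were Calb1, Avpr2, Wt1, Kdr, Cd68 and Col3a1.

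No vitamin D or klotho gene passed the test between colistin and saline kidneys. Of the 10 probes, 7 probes of 4 genes (Cyp24a1, Vdr, Kl and Rxra) were above background on at least 4 of the 12 arrays and entered the fit, and 3 probes of Cyp27b1 and Fgfr1 did not. Limma called 0 of the 7 at an adjusted p under 0.05, where 0.457% of all 16179 tested probes were called, 0.321% higher and 0.136% lower in colistin mice. That balance of 52 higher and 22 lower probes was not stable: it was 107 higher and 223 lower without saline mouse 1. At an unadjusted p under 0.05 stood 2 of the 7, Cyp24a1 and the dimmer Kl probe, both lower in colistin mice, where 10.9% of all tested probes reached it, 5.56% higher and 5.35% lower in colistin mice. The colistin and saline mice overlapped at each of the 7 probes; the groups did not overlap at 1% of all tested probes. The spread between single animals was wide beside these differences. All values come from whole kidney, in which fewer cells of a type and less RNA per cell cannot be told apart.

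Most lists of kidney cell type markers had lower medians in colistin mice, though single markers in several lists went the other way. Of 47 measured markers limma called 1, Pvalb, which encodes parvalbumin of the distal convoluted tubule, at -1.13 ± 0.19 (SE, limma adjusted p = 0.0136). Pvalb did not overlap between the groups, with log2 signals of 9.16 to 9.53 in colistin mice and 9.83 to 11.25 in saline mice. At an unadjusted p under 0.05 stood 36.2% of the markers, 2.13% higher and 34% lower in colistin mice, against 11.6% of all 11344 measured genes. The median log2 fold change was -0.56 over 6 fibroblast markers, -0.45 over 7 endothelial, -0.43 over 7 macrophage, -0.24 over 5 collecting duct, -0.16 over 4 podocyte and -0.11 over 5 distal tubule markers. It was 0.06 over 4 thick ascending limb and 0.18 over 9 proximal tubule markers.

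The summed normalized signal of the fibroblast markers was 718 to 1111 in colistin mice and 1136 to 3151 in saline mice, and these ranges did not overlap. The sums of the other lists did overlap. Those of the endothelial markers were 1642 to 2339 in colistin mice and 1380 to 3979 in saline mice, and those of the macrophage markers 384 to 680 in colistin mice and 493 to 829 in saline mice. Those of the distal tubule markers were 9220 to 12006 in colistin mice and 8695 to 12429 in saline mice. Their mean log2 deviation from the saline mean, which weighs each marker alike, did not overlap. It was -0.32 to -0.15 in colistin mice and -0.11 to 0.30 in saline mice. Of these 5 markers Pvalb was at -1.13, and the others went both ways, from -0.25 to 0.15. The fibroblast deviation did not overlap either, at -0.71 to -0.37 in colistin mice and -0.24 to 0.50 in saline mice. Saline mouse 2 had the highest fibroblast sum, and its markers deviated from the saline mean by 0.51 (podocyte), 0.50 (fibroblast) and 0.43 (macrophage) on the log2 scale. Saline mouse 1 had the lowest endothelial and podocyte deviations of all mice, at -0.70 for each list. The part of cell type content in the Cyp24a1, Vdr, Kl, Rxra and pathway values was not tested.

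**Figure D1:**
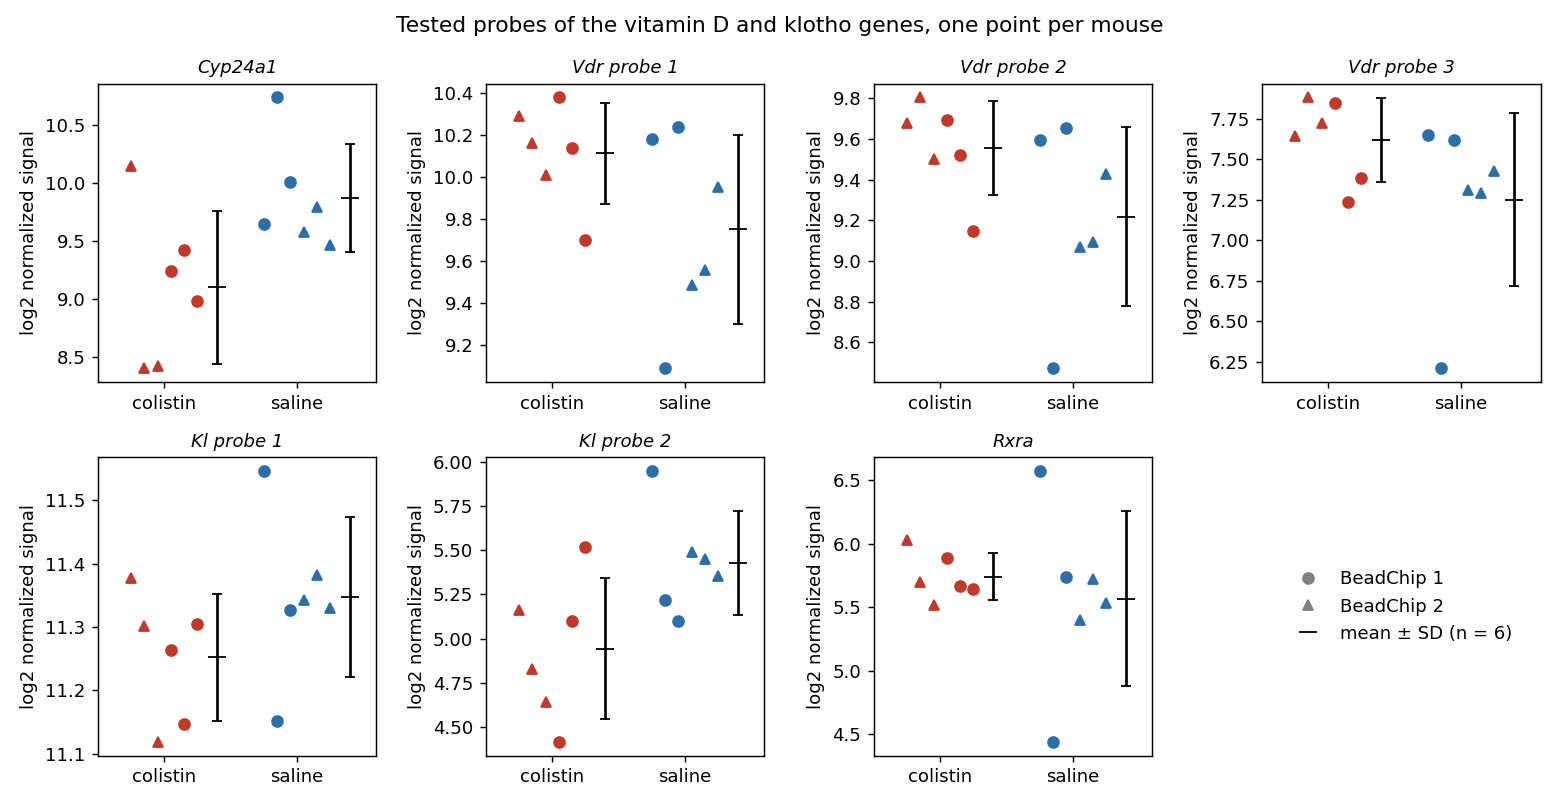
Log2 normalized signal (vertical axis) of the 7 tested probes, with 1 point per mouse, colistin left and saline right. Circles are BeadChip 1, triangles BeadChip 2 and the bars mean ± SD (n = 6). The groups overlap in every panel, and saline mouse 2 is the lowest point of all 3 Vdr probes (9.09, 8.47 and 6.21) and of Rxra (4.44).

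Cyp24a1, the mitochondrial enzyme that inactivates calcitriol and its precursor, had the largest fold change of the 7 tested probes. Its single probe was detected on all 12 arrays. The raw bead signal of Cyp24a1 ran from 446 through a median of 674 to 1178 in colistin mice, against 569, 870 and 1675 in saline mice. On the normalized log2 scale its lowest, median and highest values were 8.40, 9.11 and 10.14 in colistin mice, and 9.47, 9.72 and 10.74 in saline mice. Of the colistin mice, 5 of 6 lay below every saline mouse, between 8.40 and 9.42. The exception was colistin mouse 1 at 10.14, higher than all saline mice other than saline mouse 2 at 10.74. Colistin mice averaged 9.10 ± 0.66 and saline mice 9.87 ± 0.47 (SD, n = 6 each). The log2 fold change of Cyp24a1 was -0.77 ± 0.28 (SE, 95% interval -1.37 to -0.18), a 1.71-fold lower level that did not pass (limma adjusted p = 0.330). It was -0.98 without colistin mouse 1 (limma adjusted p = 0.135) and -0.60 without saline mouse 2, and over all alternatives it stayed between -0.98 and -0.51. With saline mice 2 and 5 both left out it was -0.57 ± 0.27 (SE, adjusted p = 0.680).

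Cyp27b1, the enzyme that makes calcitriol, was near background. Its probe was above background on 2 of 6 colistin arrays and 0 of 6 saline arrays, so it was not tested and no fold is given. The raw signal of Cyp27b1 ran from 92.6 through 100.1 to 111.1 in colistin mice, and from 90.4 through 96.7 to 103.1 in saline mice. The colistin mice above background were mouse 3 (raw signal 111.1) and mouse 6 (108.0). These 2 mice had log2 Cyp24a1 signals of 8.42 and 8.98, within the range of the other colistin mice. The first steps of the pathway were given a list of 11 genes, of which 7 were measured and 0 called (median log2 fold change 0.08, 0.01 over all 11344 measured genes). Lrp2, which encodes the uptake receptor megalin, was at 0.03 ± 0.10, and Cubn, which encodes cubilin, at 0.07 ± 0.15 (SE). The members of this list with the smallest p were Dab2, an endocytic adaptor of megalin (0.21 ± 0.13, SE), and Amn, which encodes amnionless, the partner of cubilin (0.14 ± 0.09, SE). Cyp27a1, a mitochondrial enzyme that can carry out the first hydroxylation of vitamin D, was at 0.18 ± 0.18 (SE). The carrier gene Gc and the hydroxylase gene Cyp2r1 were above background on 0 of 12 arrays.

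**Figure D2:**
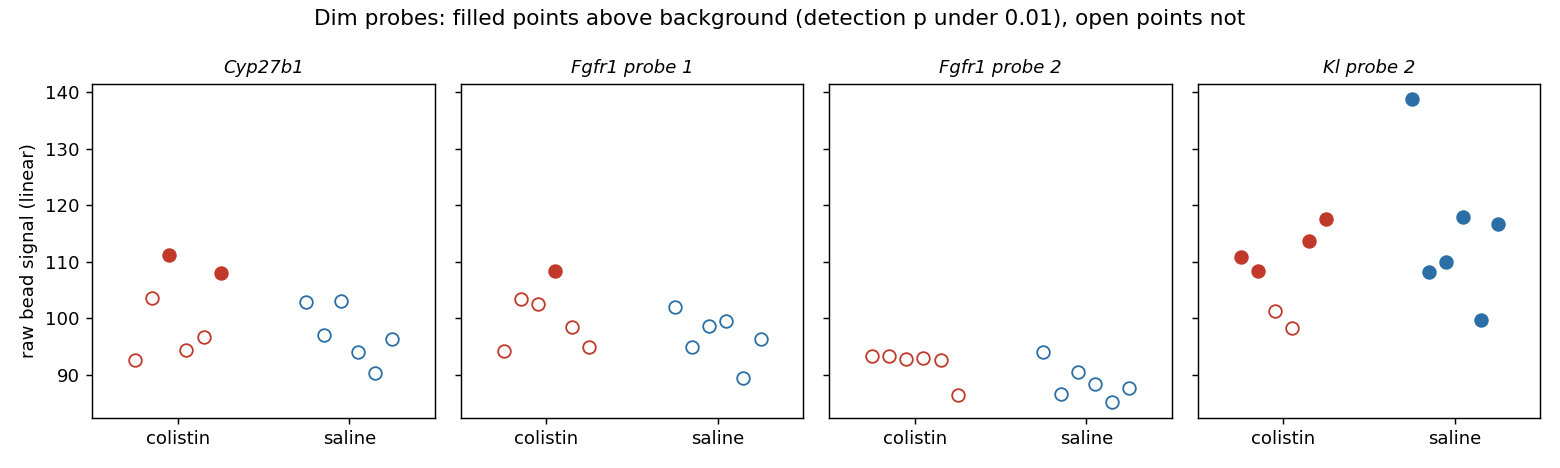
Raw bead signal (vertical axis, linear) of the 3 probes left out of the test and of the dimmer Kl probe, with 1 point per mouse, colistin left and saline right. Filled points are above background and open points are not. Cyp27b1 has 2 filled points in colistin mice and none in saline mice, and no point of Fgfr1 probe 2 is filled.

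Vdr, the nuclear receptor for calcitriol, was read by 3 probes, numbered from the brightest, and all 3 were detected on all 12 arrays. At probe 1 the lowest, median and highest log2 signals were 9.70, 10.15 and 10.38 in colistin mice, against 9.09, 9.75 and 10.24 in saline mice. At probe 2 they were 9.14, 9.60 and 9.80 in colistin mice, and 8.47, 9.26 and 9.66 in saline mice. At probe 3 they were 7.23, 7.68 and 7.88 in colistin mice, and 6.21, 7.37 and 7.65 in saline mice. At each probe 5 of 6 colistin mice lay above the saline mean, and the groups overlapped. The log2 fold changes of Vdr were 0.36 ± 0.18 at probe 1 (95% interval -0.03 to 0.76), 0.34 ± 0.18 at probe 2 and 0.37 ± 0.21 at probe 3 (SE), and none passed (limma adjusted p = 0.488, 0.503 and 0.528). As fold changes these were 1.29, 1.26 and 1.29; the 3 probes read the same 12 RNA samples and are not replicates of each other.

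The size of the Vdr difference rested on few saline mice. Without saline mouse 2 the log2 fold changes were 0.23, 0.19 and 0.16 at probes 1, 2 and 3. Without saline mice 2 and 5 they were 0.15 ± 0.16, 0.12 ± 0.14 and 0.12 ± 0.13 (SE, limma adjusted p = 0.968, 0.970 and 0.970). Saline mice 2, 4 and 5 had the lowest probe 1 signals of all mice (9.09, 9.48 and 9.56) and the highest values on the first principal component (64.6, 13.6 and 28.7). Summed over the 9 proximal tubule markers, the normalized signal was 32663 to 38277 in colistin mice and 23631 to 40706 in saline mice. The mean log2 deviation of these markers from the saline mean was -0.43 in saline mouse 2, 0.02 in saline mouse 4 and 0.03 in saline mouse 5. The podocyte, fibroblast and macrophage markers of saline mouse 2 lay above the saline mean, as given above. The part of array signal in the Vdr values was not tested.

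**Figure D3:**
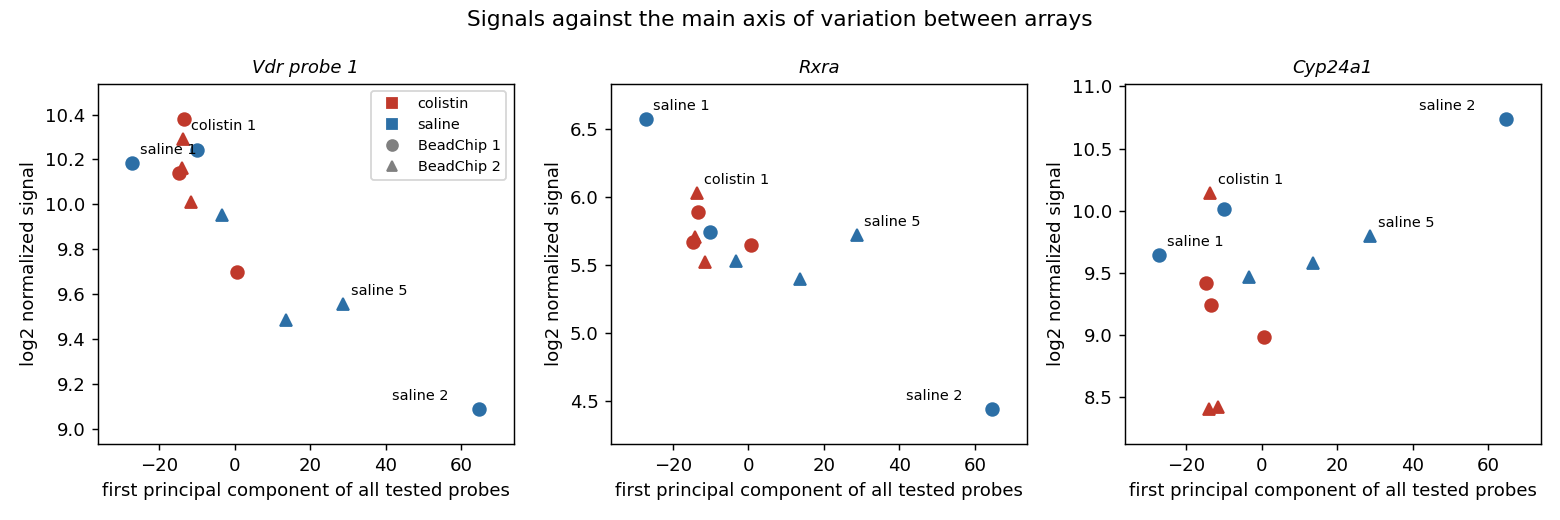
Log2 normalized signal of Vdr probe 1, Rxra and Cyp24a1 (vertical axes) against the first principal component of all tested probes (horizontal axis, no unit), with 1 point per mouse. Colistin is red and saline blue, circles are BeadChip 1 and triangles BeadChip 2. Saline mouse 2 is at 64.6 on the horizontal axis, with the lowest Vdr and Rxra signals and the highest Cyp24a1 signal.

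Rxra, the partner with which Vdr binds DNA, was dim. Its single probe was detected on 6 of 6 colistin and 5 of 6 saline arrays, the exception being saline mouse 2. Its lowest, median and highest log2 signals were 5.52, 5.68 and 6.03 in colistin mice, and 4.44, 5.63 and 6.57 in saline mice. The saline mice thus reached both further down (mouse 2) and further up (mouse 1) than any colistin mouse. The log2 fold change of Rxra was 0.17 ± 0.25 (SE, 95% interval -0.36 to 0.70, limma adjusted p = 0.782). It had the opposite sign without saline mouse 2, at -0.05, and was 0.38 without saline mouse 1. Other partners and coregulators of Vdr were given a list of 12 genes, of which 7 were measured and 0 called (median 0.12). Its members with the smallest p were Cebpb, a transcription factor that takes part in the induction of Cyp24a1 (0.53 ± 0.29, SE), and Ncor1, a nuclear receptor corepressor (0.24 ± 0.14, SE). Rxrb, the other measured retinoid X receptor, was at 0.11 ± 0.10 (SE).

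The promoter windows of Vdr and Kl, a receptor and a co-receptor of the set, are shown because a receptor pair of Vdr and Rxra binds direct repeats of a hexamer with 3 bases between them. The search took the hexamer AGGTCA and its common variants, which have either purine in the first place and G or T in the third, on both strands, and each match is in capitals. The sequences are RefSeq's on build GRCm38.p6, 250 bases before to 50 bases after the annotated start, in the direction of transcription. The Vdr window is chr15:97908247-97908546 on the minus strand and the Kl window chr5:150952357-150952656 on the plus strand.
Vdr: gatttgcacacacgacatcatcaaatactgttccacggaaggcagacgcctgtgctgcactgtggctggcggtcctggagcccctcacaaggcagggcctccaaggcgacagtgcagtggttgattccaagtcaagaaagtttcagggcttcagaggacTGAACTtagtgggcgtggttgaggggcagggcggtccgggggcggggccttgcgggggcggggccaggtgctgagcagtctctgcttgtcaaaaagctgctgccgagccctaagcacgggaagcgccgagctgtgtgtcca
Kl: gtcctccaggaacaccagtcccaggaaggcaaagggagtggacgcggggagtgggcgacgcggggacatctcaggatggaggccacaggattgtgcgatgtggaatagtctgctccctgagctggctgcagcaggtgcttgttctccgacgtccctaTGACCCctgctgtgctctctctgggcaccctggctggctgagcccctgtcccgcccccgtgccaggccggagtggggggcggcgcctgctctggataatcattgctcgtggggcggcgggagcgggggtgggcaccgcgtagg
Each window held 1 hexamer and no direct repeat. Of the 6 genes 4 were in the promoter table. Cyp24a1, which this receptor pair switches on, and Fgfr1 had no window there and were not searched. The Cyp27b1 window held 1 hexamer, the windows of the 2 annotated Rxra starts held 0 and 3, and none of these held the repeat. Among all 32851 windows of this length 43.7% held at least 1 hexamer and 0.0396% (13 windows) held the repeat. A match is a description of letters and not a binding site.

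Kl, which encodes klotho, was bright, and its brighter probe differed little between the groups. At probe 1, detected on all 12 arrays, the lowest, median and highest log2 signals were 11.12, 11.28 and 11.38 in colistin mice, against 11.15, 11.34 and 11.55 in saline mice. The log2 fold change at Kl probe 1 was -0.09 ± 0.09 (SE, limma adjusted p = 0.674), and the 95% interval ran from -0.28 to 0.09, the narrowest of the 7 probes. Leaving out any 1 mouse kept it between -0.13 and -0.06.

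The dimmer Kl probe gave a larger difference, the size of which changed with the processing. Kl probe 2 was above background on 4 of 6 colistin and 6 of 6 saline arrays, and colistin mice 3 and 4 were the exceptions. Its lowest, median and highest log2 signals were 4.41, 4.96 and 5.52 in colistin mice, and 5.10, 5.40 and 5.95 in saline mice. Of the colistin mice 5 of 6 lay below the saline mean, and colistin mouse 6 lay above it. The log2 fold change at Kl probe 2 was -0.48 ± 0.18 (SE, 95% interval -0.86 to -0.10), a 1.40-fold lower level that did not pass (limma adjusted p = 0.348). This size depended on the treatment of background: it was -0.16 ± 0.07 without background correction and -0.24 ± 0.10 with an offset of 50 (SE), and ran from -0.60 to -0.16 over 26 alternatives. Its raw signals were 98.2 to 117.5 in colistin mice and 99.8 to 138.8 in saline mice, near background, whereas those at probe 1 were 2379 to 3015 in colistin mice and 1724 to 3369 in saline mice. The probes of this gene thus gave the same sign and different sizes; the difference between the probes was not tested. Of 3 proteases fixed as klotho-shedding genes, 2 were measured and 0 called, with Bace1 at -0.10 ± 0.15 and Adam17 at -0.08 ± 0.13 (SE).

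Fgfr1, a receptor that binds FGF23 together with klotho, had 2 probes, both near background. Probe 1 was above background on 1 of 6 colistin arrays (mouse 4, raw signal 108.3) and 0 of 6 saline arrays, and probe 2 on 0 of 12. The raw signals of probe 1 were 94.2 to 108.3 in colistin mice and 89.5 to 101.9 in saline mice, and those of probe 2 were 86.5 to 93.4 in colistin mice and 85.1 to 94.0 in saline mice. Fgfr1 was therefore not tested, and its level relative to the other FGF receptors cannot be read from these probes. Among the 18 genes listed for FGF23 signalling 9 were measured and 0 called (median 0.01). Fgfr2 was at 0.05 ± 0.13 and Fgfr3 at 0.07 ± 0.17 (SE), and the Fgf23, Klb and Fgfr4 probes were above background on 0 of 12 arrays. The members with the smallest p were Egr1, an immediate early gene that FGF23 induces in the kidney (-0.78 ± 0.34, SE), and Galnt3, whose enzyme protects FGF23 from cleavage (-0.19 ± 0.16, SE). The log2 signal of Egr1 was 7.52 to 8.54 in colistin mice and 7.92 to 10.22 in saline mice, and it did not pass (limma adjusted p = 0.421).

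**Figure D4:**
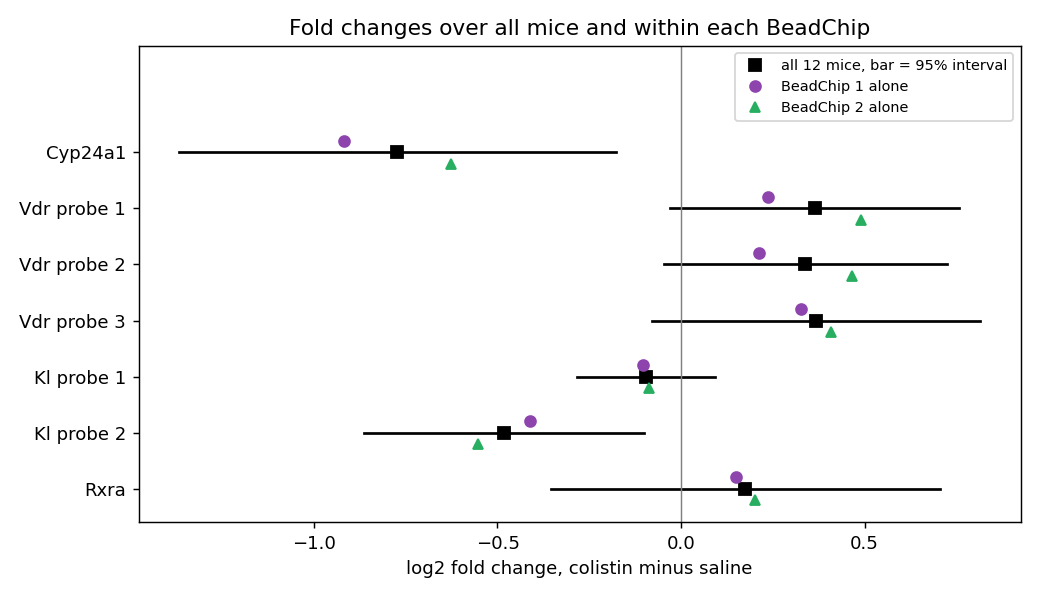
Log2 fold change, colistin minus saline (horizontal axis), of the 7 tested probes. Squares are the fit over all 12 mice with a 95% interval, circles BeadChip 1 alone and triangles BeadChip 2 alone. Each probe has the same sign on both BeadChips, from -0.92 and -0.63 at Cyp24a1 to 0.24 and 0.49 at Vdr probe 1.

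Each tested probe had the same direction on both BeadChips. Cyp24a1 was at -0.92 ± 0.28 on BeadChip 1 and -0.63 ± 0.40 on BeadChip 2 (SE, 3 mice of each group on each). Kl probe 2 was at -0.41 ± 0.33 and -0.55 ± 0.14, and Kl probe 1 at -0.10 ± 0.17 and -0.09 ± 0.11. The Vdr probes were at 0.24, 0.21 and 0.33 on BeadChip 1 and at 0.49, 0.47 and 0.41 on BeadChip 2, and Rxra at 0.15 and 0.20. No probe passed on either BeadChip (lowest limma adjusted p = 0.0891, Kl probe 2 on BeadChip 2). The interaction of BeadChip and treatment was not called at any of the 7 (limma adjusted p = 0.9998 at each), and by limma it was called at 0 of all 16179 tested probes, of which 412 had an unadjusted p under 0.05.

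Transporters that calcitriol and FGF23 act on were examined next. Of 8 calcium transport and sensing genes regulated by vitamin D, 5 were measured and 0 called (median 0.17). Trpv5, the apical calcium channel of the distal tubule, was at 0.15 ± 0.13, and Atp2b4, a plasma membrane calcium pump, at 0.19 ± 0.11 (SE). Atp2b4 was near background, detected on 3 of 6 colistin and 1 of 6 saline arrays. It passed the filter mainly through colistin arrays, where it was higher, so its value is not read as a difference. Slc8a1, the sodium-calcium exchanger that moves calcium out of distal tubule cells, was at 10.32 ± 0.23 in colistin mice and 10.84 ± 0.25 in saline mice on the log2 scale (SD, n = 6 each). Slc8a1 was the 1 of 41 measured pathway genes whose groups did not overlap: 9.86 to 10.51 in colistin mice, against 10.58 to 11.28 in saline mice, where 1% of all tested probes did not overlap. Its log2 fold change of -0.53 ± 0.13 (SE) did not pass (limma adjusted p = 0.130). Without saline mouse 1 Slc8a1 was at -0.58 and passed (limma adjusted p = 0.0429), where 330 of all tested probes were called, against 74 with all mice. Its other tested probes were at -0.34 and -0.03. Pvalb, another distal tubule gene, was lower in colistin mice by a larger amount, as given above. The other measured distal tubule markers went both ways and none was called. Besides Trpv5, Slc12a3 was at -0.25 ± 0.20, Trpm6 at -0.11 ± 0.13 and Klk1 at 0.13 ± 0.14 (SE). Calb1 was above background on 0 of 12 arrays, and S100g, the gene of the cytosolic calcium-binding protein calbindin D9k, on 0 of 6 colistin and 3 of 6 saline arrays, so neither was tested.

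Of 8 phosphate transport genes 6 were measured and 0 called (median 0.06). Slc34a1, the main phosphate transporter of the proximal tubule, had log2 signals of 14.17 to 14.27 in colistin mice and 13.97 to 14.37 in saline mice, with a log2 fold change of 0.06 ± 0.09 (SE). Slc34a3, a related phosphate transporter of the same tubule segment, was at -0.28 ± 0.23, and Slc9a3r1, a scaffold that holds these transporters at the brush border, at 0.20 ± 0.13 (SE). Parathyroid hormone and calcitonin raise Cyp27b1. The genes listed for their signalling numbered 7, of which 5 were measured and 0 called (median 0.22). That median rested on few saline mice: it was 0.05 without saline mouse 2, 0.11 without saline mouse 5, -0.12 without both, and -0.02 with arrays weighted by their quality. Adcy6, an adenylyl cyclase, was at 0.41 ± 0.17, and Pth1r, the parathyroid hormone receptor, at 0.26 ± 0.18 (SE). Over all lists, of 41 measured genes limma called 0. Of all 11344 measured genes it called 44 higher and 21 lower, and of all tested probes 0.457%. At an unadjusted p under 0.05 stood 1 higher (Adcy6) and 2 lower (Slc8a1 and Egr1), 7.32% of the 41 genes, where 11.6% of all measured genes reached it, 5.59% higher and 6.01% lower. The median over the 41 genes was 0.07, against 0.01 over all measured genes.

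**Figure D5:**
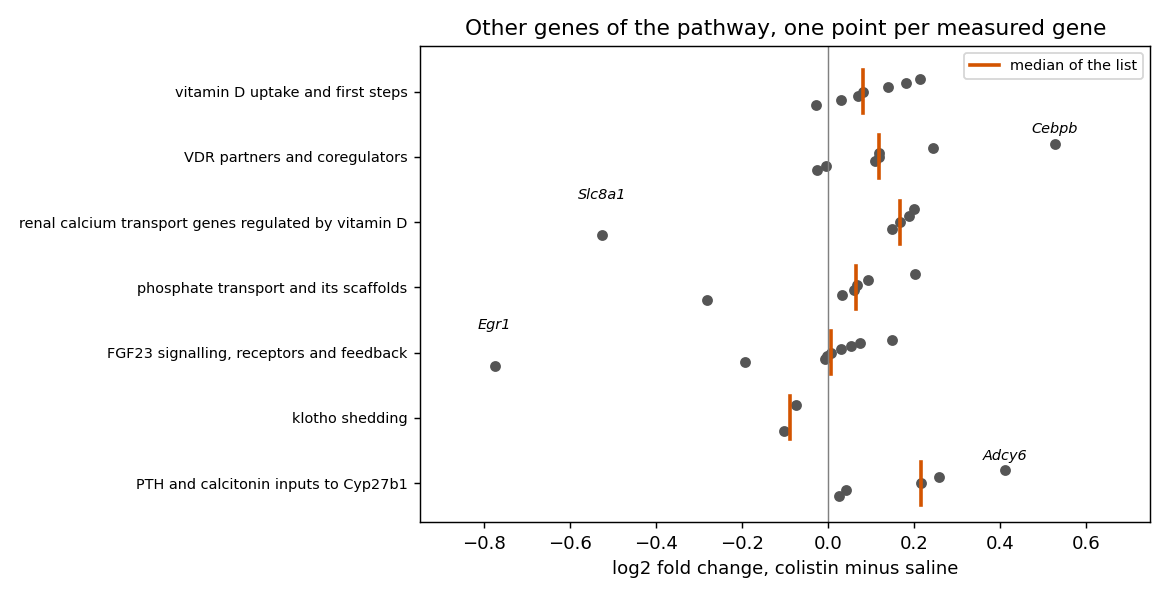
Log2 fold change, colistin minus saline (horizontal axis), of the 41 measured genes of 7 pathway lists, with 1 point per gene and an orange bar at each list's median. Most points lie near 0; Egr1 (-0.78) and Slc8a1 (-0.53) lie lowest, and Cebpb (0.53) and Adcy6 (0.41) highest.

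The genes whose signals followed each member most closely over the 12 arrays are given as a description, with no test, since all points share the 2 BeadChips and the normalization. For Cyp24a1 they were Runx1t1 (Pearson r = 0.91, Spearman rho = 0.92) and Cbx8 (r = 0.91, rho = 0.90), with r = 0.84 and 0.82 once saline mouse 2 and colistin mouse 2 were left out. For Vdr probe 1 they were Cdc42bpb (r = 0.98, rho = 0.97) and Ssh3 (r = 0.97, rho = 0.86), with r = 0.95 and 0.92 without saline mice 2 and 4. For Kl probe 1 they were Nr1d1, a circadian clock repressor (r = 0.87, rho = 0.80), and Stab1 (r = 0.86, rho = 0.69). Without saline mouse 1 and colistin mouse 3 these were r = 0.69 and 0.64. For Rxra they were Dhrs1 (r = 0.97, rho = 0.87) and Pcif1 (r = 0.96, rho = 0.79), with r = 0.75 and 0.72 without saline mice 1 and 2. None of these 8 genes was called between the groups (limma adjusted p = 0.171 for Runx1t1, at -0.45 ± 0.12, SE, and 0.461 or more for the others).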

How the data were processed

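RNA of 12 kidneys was read on Illumina arrays. The authors deposited the mean bead signal per probe as intensities on a linear scale, without background subtraction, with a detection p-value per probe and array, per the file headers. They also deposited gene-level and normalized intensities. The submitters' processing notes list GenomeStudio and Partek, with no version or setting given here. Raw intensities were corrected and quantile-normalized with neqc (limma 3.58.1, R 4.3.3; background from the detection p-values, offset 16) and taken as log2 values. This offset shrinks differences at dim signals. The fit took 16179 probes whose detection p was below 0.01 on 4 or more of the 12 arrays, and 29102 were dropped. Colistin and saline mice were compared by lmFit and eBayes, two-sided, p-values being adjusted by Benjamini-Hochberg over the 16179 probes, with 95% intervals from limma's moderated standard errors. The labels name separate mice, so the spread is between animals. The number of arrays limits the precision.

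For a listed gene the brightest kept probe stood. Every probe of the 6 genes is reported. Of 7 pathway lists (67 genes, 64 on the array), called genes or otherwise the 2 with the smallest p are named, and other genes named beside them were chosen after their values were seen. For likeness, the 2 genes with the highest Pearson r are named. The members and lists were chosen with earlier results of these data known. The fit was run on simulated data whose noise was independent between probes. The real arrays share a main axis of variation, so that run cannot vouch for the calls made here. Array symbols were updated through RefSeq names (GRCm38.p6): 27760 probes carried a current symbol, 8035 a synonym and 9486 the array's own name.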

Additional observations from a re-analysis of the deposited data

Results flagged for a closer look

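Among 20 groups of 6 values (10 probes in 2 groups), 1 held a mouse far from the rest, where chance alone gives about 1 in 20. At Vdr probe 3, saline mouse 2 had a log2 signal of 6.21, whereas the other saline mice lay between 7.29 and 7.65. Signals above background in colistin mice also appeared among the probes left out of the test. Cyp27b1 was above background on 2 of 6 colistin arrays and 0 of 6 saline arrays, and Fgfr1 probe 1 on 1 of 6 colistin arrays and 0 of 6 saline arrays.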

How the results depend on the processing

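Over 29 alternatives, 193 of 195 values of the 7 tested probes kept their direction and none passed the threshold. The 195 include gene-level values, which are counted under each gene's single or brightest probe. The 2 exceptions in direction were those of Rxra, at -0.069 without saline mice 2 and 5 and -0.051 without saline mouse 2; leaving out any 1 mouse gave -0.051 to 0.38. The number of probes called over the whole array moved more than any member. It was 74, and 25 without background correction, 45 with an offset of 50, 37 with the authors' normalized intensities, 33 without a filter (more probes tested), 27 with detection on all arrays (which leaves out Rxra and Kl probe 2) and 471 with array weights. It was 298 on BeadChip 2 and 0 on BeadChip 1 by limma, where 339 probes had an unadjusted p under 0.05. At adjusted p under 0.1 and 0.01 it was 138 and 27. Leaving out 1 mouse gave 38 (saline mouse 4) to 330 (saline mouse 1), with counts of 48 or fewer also without colistin mouse 2, 3, 5 or 6 or saline mouse 6. More probes were called lower than higher under 3 alternatives: array weights (199 higher, 272 lower), BeadChip 2 (103 higher, 195 lower) and without saline mouse 1 (107 higher, 223 lower). The cause of these differences was not tested. In the calcium transport list, Slc8a1 was called with array weights (1 gene, limma adjusted p = 0.0256) and without saline mouse 1, and leaving out 1 mouse gave 0 to 1 called genes. The other lists had 0 called genes under every alternative, and 15 of 189 list medians moved by more than their SD between the colistin mice. Medians took the opposite sign under 2 alternatives for the parathyroid hormone list (to -0.12), 2 for the first steps list (to -0.02), 4 for the FGF23 list (to -0.07), 1 for phosphate transport (-0.05) and 1 for klotho shedding (0.04). Same-numbered mice did not deviate together (r = -0.26 to 0.12). They lay on different BeadChips, so these values cannot decide whether the numbers pair the mice. With the replicate number as a block 36 probes were called. The gene-level tables average the probes of a gene, and Cyp27b1 and Fgfr1 failed the detection filter there too. Dim signal limits what can be said of Cyp27b1, Fgfr1 and Rxra.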
